A study of Mus musculus with 8 samples.

Results

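The T cell receptor gamma (TCRγ) locus of the mouse lies on chromosome 13, and 9 of its genes were followed here: the variable genes Tcrg-V1, Trgv2 and Tcrg-V4, the joining segments Trgj2 and Trgj4, and the constant genes Tcrg-C1, Tcrg-C2, Tcrg-C3 and Tcrg-C4. They are 9 of the 47937 genes of the count table. They were picked by name with their difference between Ndrg3 TKO and Ndrg3 ctrl cells already known, so that difference is given below as a description and is not tested. Each of the 9 passed the filter on low counts, along with 14633 genes in all. The annotation places 6 further genes in the locus (Tcrg-V3, Tcrg-V5, Tcrg-V6, Tcrg-V7, Trgj1 and Trgj3), and 0 of these passed. A low gene passes when its counts suffice in 1 of the groups, so passing it carries no weight of its own.

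The RNA came from mature CD8 single-positive (CD8SP) thymocytes sorted as TCRβ+MHC1 high cells, from 4 Ndrg3 ctrl and 4 Ndrg3 TKO mice aged 6 to 7 weeks. Ndrg3 ctrl mice are Ndrg3 +/fl;Lck-cre+ and Ndrg3 TKO (T cell knockout) mice are Ndrg3 fl/fl;Lck-cre+. Both groups thus carry the Cre transgene, driven early in T cell development by the proximal Lck promoter, and at least 1 floxed Ndrg3 allele, and the conditional allele was derived from a single embryonic stem cell clone. The labels call the libraries of a group biological replicates and do not name the sex of the mice.

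A TCRγ chain pairs with a TCRδ chain to form the receptor of gamma delta T cells, a lineage that leaves the thymus beside the alpha beta T cells to which CD8SP cells belong. The locus is built of repeated cassettes, each with its own variable (V), joining (J) and constant (C) genes, and the RAG recombinase joins a V gene to a J segment before the transcript is spliced to the C gene of that cassette. Many alpha beta T cells carry rearranged gamma genes from their precursor stage but keep the locus transcriptionally quiet, and signals through the IL-7 receptor and STAT5 are known to open it to recombination.

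The 15 genes span positions 19178024 to 19352756 of chromosome 13 (GRCm38) and form 4 V-J-C clusters, named here by their J and C genes. The J1-C1 cluster (Tcrg-V7, Tcrg-V4, Tcrg-V6, Tcrg-V5, Trgj1 and Tcrg-C1), the J3-C3 cluster (Tcrg-V3, Trgj3 and Tcrg-C3) and the J4-C4 cluster (Tcrg-V1, Trgj4 and Tcrg-C4) lie on the + strand, and the J2-C2 cluster (Tcrg-C2, Trgj2 and Trgv2) lies on the − strand. The joining segments are shown because they tell the clusters apart and because their likeness limits how reads can be assigned. Bases in capitals are those at which Trgj1, Trgj2 and Trgj3 are not all alike, and in Trgj4 those unlike Trgj1 in the best placement without gaps. The first base of Trgj4 has no partner in that placement and is also in capitals. Trgj1 lies at chr13:19210343-19210402 (+), Trgj3 at chr13:19257117-19257176 (+), Trgj2 at chr13:19311245-19311304 (−) and Trgj4 at chr13:19342152-19342212 (+), and each is a single annotated coding exon, given 5′ to 3′ from GENCODE.
Trgj1: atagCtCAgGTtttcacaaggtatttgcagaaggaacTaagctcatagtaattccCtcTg
Trgj3: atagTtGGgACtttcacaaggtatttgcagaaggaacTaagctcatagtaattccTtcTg
Trgj2: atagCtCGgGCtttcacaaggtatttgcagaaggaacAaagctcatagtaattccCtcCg
Trgj4: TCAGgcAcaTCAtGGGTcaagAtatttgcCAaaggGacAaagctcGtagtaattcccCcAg

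Trgj1 and Trgj2 differ at 4 of 60 bases, Trgj3 differs from either at 6, and Trgj4 differs from Trgj1 at 19 of the 60 aligned bases. The constant genes fall into the same pattern. Their first exons, each 330 bases long, encode the constant domain, and those of Tcrg-C1, Tcrg-C2 and Tcrg-C3 are 96.1% to 97.3% identical to each other, while that of Tcrg-C4 is 81.2% to 82.1% identical to the others. The short exons that follow encode the stretch that connects the domain to the membrane, and they are shown because they are where the constant genes differ most plainly in length. They lie at chr13:19215864-19215908 (Tcrg-C1, exon 2), chr13:19262644-19262687 (Tcrg-C3, exon 2), chr13:19305769-19305798 (Tcrg-C2, exon 2), chr13:19349536-19349589 (Tcrg-C4, exon 2) and chr13:19350330-19350374 (Tcrg-C4, exon 3).
Tcrg-C1 exon 2: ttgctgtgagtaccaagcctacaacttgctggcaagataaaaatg
Tcrg-C3 exon 2: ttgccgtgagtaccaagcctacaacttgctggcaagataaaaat
Tcrg-C2 exon 2: ttgctacaacttgctggcaagataaaaatg
Tcrg-C4 exon 2: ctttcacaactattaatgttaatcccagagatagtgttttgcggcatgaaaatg
Tcrg-C4 exon 3: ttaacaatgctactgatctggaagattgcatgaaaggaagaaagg

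Among windows of 50 bases along the annotated transcripts, 70.4% of those of Tcrg-C1, 74.6% of Tcrg-C2 and 63.8% of Tcrg-C3 occur in no other gene of the locus, against every window of Tcrg-C4. For Trgv2, Tcrg-V1 and Tcrg-V3, whose second exons are 94.5% to 95.8% identical, the shares are 93.0%, 75.4% and 77.6%. How reads with several matches, or reads that cover more than one gene of a joined transcript, were counted is not stated, so counts may have been split or lost among similar genes and between the V, J and C genes of one transcript. A gene count also does not tell a rearranged transcript from an unrearranged one.

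The 8 libraries held 21126698 to 32668081 counts, with Ndrg3 ctrl replicate 2 the shallowest, and a floor of 3 counts corresponded to between 0.0921 and 0.147 CPM (counts per 1e+06 of the TMM-scaled library size). Ndrg3, the targeted gene, was at 79.3 to 81.5 CPM in the Ndrg3 ctrl libraries and at 48.4 to 55.3 CPM in the Ndrg3 TKO libraries, which was −0.64 as a log2 fold change with a standard error (SE) of 0.0526 and an adjusted p of 1.04e-05 (quasi-likelihood test of edgeR, Benjamini-Hochberg adjustment), and reads from exons outside the floxed one count toward it. The sorted cell type was borne out by its markers, with Cd8a at a mean of 1367 CPM in Ndrg3 ctrl and 1351 CPM in Ndrg3 TKO, while Cd4 was at 0.668 and 0.564 CPM. Ms4a1 of B cells, Ncr1 of natural killer (NK) cells and 3 of 4 globin genes had 0 counts in every library, and the myeloid markers summed to no more than 1.13 CPM. The B cell markers summed to 252 to 301 CPM in Ndrg3 ctrl and 261 to 312 CPM in Ndrg3 TKO, nearly all of it Ighm. Of 2 tested B cell markers, DESeq2 called Cd79b lower in Ndrg3 TKO and edgeR called 0. Summed Y-linked expression was present in Ndrg3 ctrl replicate 2 and in Ndrg3 TKO replicates 2 and 3.

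Counts of the 9 genes together rose from 107 to 124 per Ndrg3 ctrl library to 1738 to 2522 per Ndrg3 TKO library. In CPM the sum was 4.28 ± 0.679 and 65.3 ± 12.8, respectively (SD, n = 4 each), a 15.3-fold difference, and for each of the 9 genes the lowest Ndrg3 TKO library lay above the highest Ndrg3 ctrl library. The fitted log2 fold changes ranged from 1.87 for Tcrg-V4 to 4.99 for Tcrg-C2, with a median of 3.15 against −0.0033 over all tested genes. At an adjusted p-value under 0.05, 8 of the 9 were called higher, against 0.793% of all tested genes called higher and 0.355% called lower. Among all tested genes the 4 Ndrg3 TKO libraries lay above every Ndrg3 ctrl library in 3.44% and below in 3.59%. Because this contrast chose the genes, nothing is read from these counts. In a bulk library, fewer cells of a type and less RNA per cell cannot be told apart.

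**Figure D1:**
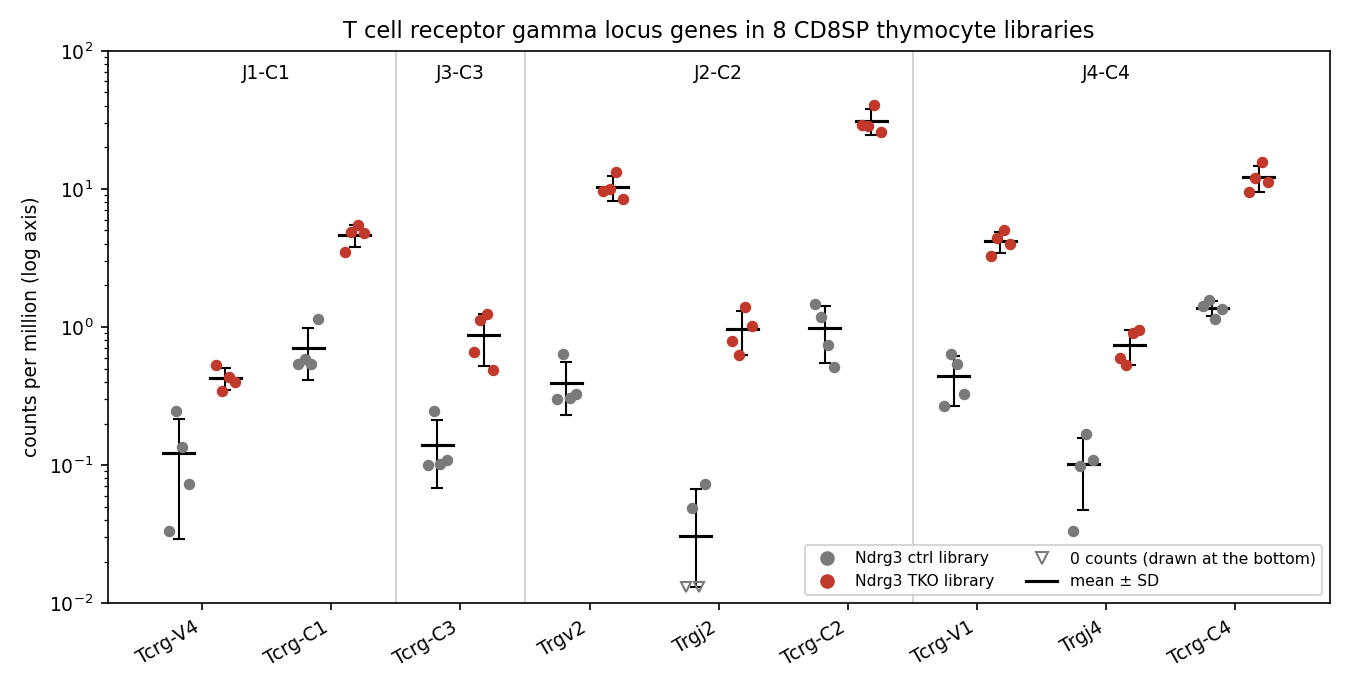
CPM (log axis) of the 9 gamma locus genes, grouped by V-J-C cluster, with a point for each of the 4 Ndrg3 ctrl (grey) and 4 Ndrg3 TKO (red) libraries and a bar for the mean ± SD. For each gene the red points lie above the grey ones, and the gap is widest in the J2-C2 cluster. Libraries with 0 counts are open triangles at the bottom, where the lower SD bar of Trgj2 is also cut.

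The J2-C2 cluster showed the widest difference, from 1.40 ± 0.490 to 42.3 ± 8.98 CPM (SD, n = 4 each), or 30.2-fold. Tcrg-C2 (ENSMUSG00000076752, chr13:19304649-19307551), the constant gene, had 44, 24, 22 and 14 counts in Ndrg3 ctrl replicates 1 to 4 and 878, 907, 1221 and 841 in Ndrg3 TKO replicates 1 to 4. Replicate 1 was the highest and replicate 4 the lowest of the Ndrg3 ctrl libraries, and all of them were far below the lowest Ndrg3 TKO library. In CPM this was 0.978 ± 0.432 against 31.0 ± 6.64 (SD, n = 4 each), with a log2 fold change of 4.99 (SE 0.251).

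Trgv2 (ENSMUSG00000076754, chr13:19336573-19337167), the variable gene of this cluster, had 9, 13, 9 and 9 counts in the Ndrg3 ctrl libraries and 291, 316, 398 and 273 in the Ndrg3 TKO libraries. Ndrg3 ctrl replicate 2 was the high library of its group, and the groups did not overlap. The mean was 0.394 ± 0.164 and 10.3 ± 2.10 CPM in the 2 groups (SD, n = 4 each), with a log2 fold change of 4.76 (SE 0.232). Trgj2 (ENSMUSG00000105830), the joining segment between them, had 0, 1, 0 and 2 counts in the Ndrg3 ctrl libraries and 24, 20, 42 and 33 in the Ndrg3 TKO libraries. Its summed counts, 3 against 119, give a ratio of 34.1 after scaling, with an exact 95% interval from 11.4 to 168 that covers counting error only. The V, J and C genes of the cluster, whose transcript would join all of them, had log2 fold changes of 4.76 to 4.99, and their intervals overlapped.

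The J4-C4 cluster was next, at 1.92 ± 0.268 CPM in Ndrg3 ctrl and 17.1 ± 3.42 CPM in Ndrg3 TKO (SD, n = 4 each), an 8.89-fold difference. Tcrg-C4 (ENSMUSG00000076757, chr13:19344558-19352756), the constant gene with no near-identical copy, had 42, 32, 34 and 37 counts in the Ndrg3 ctrl libraries and 288, 383, 471 and 368 in the Ndrg3 TKO libraries. The 4 Ndrg3 ctrl libraries were close to each other, and the groups did not overlap. Its mean was 1.37 ± 0.174 CPM in Ndrg3 ctrl and 12.2 ± 2.60 CPM in Ndrg3 TKO (SD, n = 4 each), with a log2 fold change of 3.15 (SE 0.174).

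Tcrg-V1 (ENSMUSG00000076755, chr13:19339989-19340454), the variable gene upstream of Tcrg-C4, had 8, 13, 16 and 9 counts in the Ndrg3 ctrl libraries and 98, 140, 150 and 130 in the Ndrg3 TKO libraries, with a log2 fold change of 3.25 (SE 0.252). Trgj4 (ENSMUSG00000098799), the joining segment, had 1, 2, 5 and 3 counts in the Ndrg3 ctrl libraries and 18, 17, 27 and 31 in the Ndrg3 TKO libraries, with a log2 fold change of 2.81 (SE 0.432). The groups did not overlap for either gene, and the intervals of the 3 members of the cluster overlapped each other.

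The J1-C1 cluster rose less, from 0.822 ± 0.279 to 5.07 ± 0.778 CPM (SD, n = 4 each), or 6.17-fold. Tcrg-C1 (ENSMUSG00000076749, chr13:19214103-19217024) had 16, 12, 16 and 31 counts in the Ndrg3 ctrl libraries and 105, 156, 163 and 155 in the Ndrg3 TKO libraries, with a log2 fold change of 2.72 (SE 0.242). Ndrg3 ctrl replicate 4 was the high library of its group, at 1.13 CPM against a group mean of 0.700. Tcrg-V4 (ENSMUSG00000076745, chr13:19184974-19185506), a variable gene at the other end of the cluster, had the smallest difference of the 9, with 1, 5, 4 and 2 counts in the Ndrg3 ctrl libraries and 16, 11, 13 and 13 in the Ndrg3 TKO libraries. Its log2 fold change was 1.87 (SE 0.472), and it was the member not past the threshold. The annotated − strand gene Gm31887 overlaps the V genes of this cluster, and with the strand setting of the counting not stated, reads from the 2 strands cannot be told apart there. Gm31887 had 0, 1, 1 and 0 counts in the Ndrg3 ctrl libraries and 9, 9, 7 and 15 in the Ndrg3 TKO libraries.

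Tcrg-C3 (ENSMUSG00000091682, chr13:19260884-19263528), the only member of the J3-C3 cluster, had 3, 5, 3 and 3 counts in the Ndrg3 ctrl libraries and 20, 36, 37 and 16 in the Ndrg3 TKO libraries. The Ndrg3 TKO libraries were uneven, with replicates 2 and 3 high and replicates 1 and 4 low, and all lay above Ndrg3 ctrl. Its log2 fold change was 2.70 (SE 0.442), and Ndrg3 ctrl sat close to the floor of 3 counts. Ndrg3 ctrl replicate 2, the highest of its group, and Ndrg3 TKO replicates 2 and 3 were the libraries with Y-linked expression. With that expression as a covariate the log2 fold change was 2.35, and the part of sex was not tested.

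**Figure D2:**
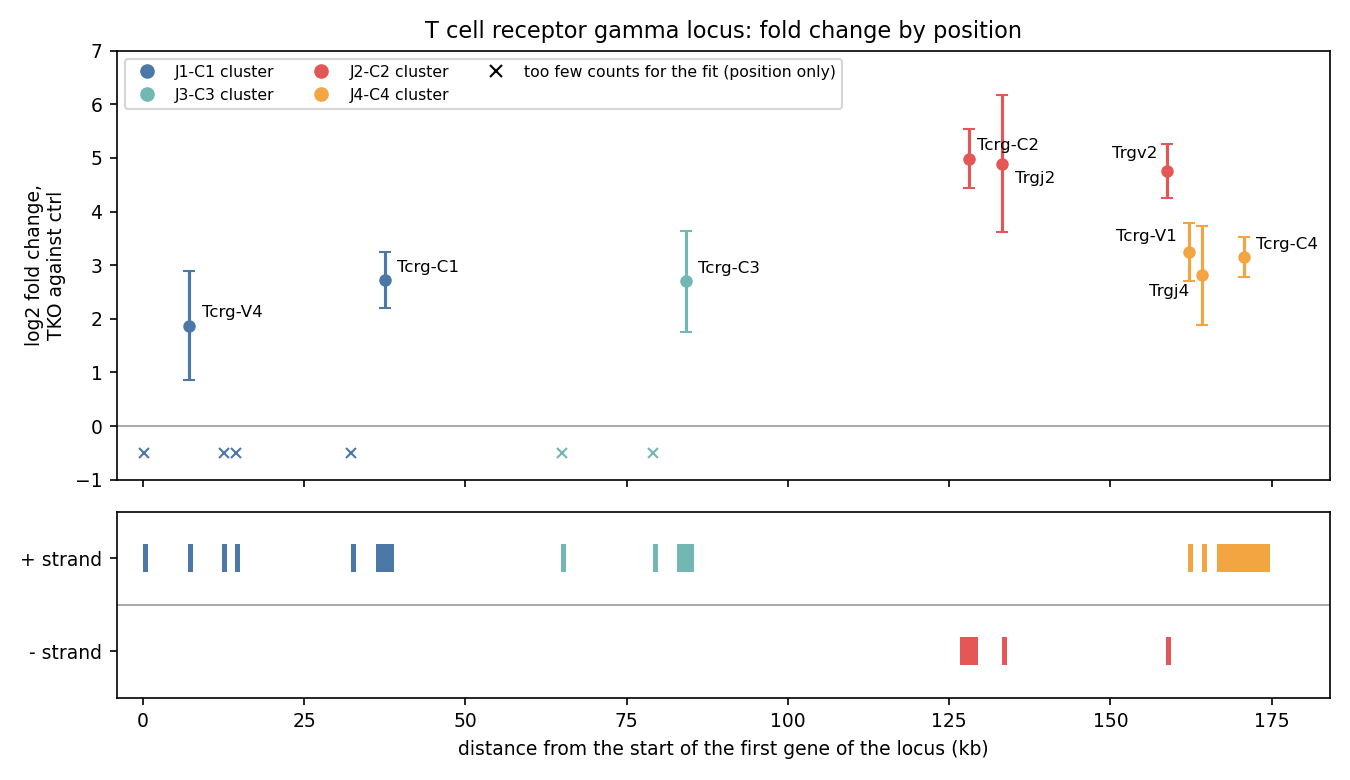
Fitted log2 fold change of Ndrg3 TKO against Ndrg3 ctrl with its 95% interval (upper panel) and the strand of each gene (lower panel), both by distance in kilobases from the start of the first gene of the locus, colored by V-J-C cluster. The 3 genes of the J2-C2 cluster, on the − strand, lie at 4.76 to 4.99, above the 6 genes of the + strand clusters at 1.87 to 3.25, and crosses mark the 6 genes without a fitted value.

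Since Tcrg-C1, Tcrg-C2 and Tcrg-C3 are alike enough to share reads, their counts were also summed into a single row before the fit, which gave a log2 fold change of 4.34 (SE 0.166). That sum is dominated by Tcrg-C2 in Ndrg3 TKO. Tcrg-C4, which shares no 50-base window with the others, had 3.15.

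The 6 remaining genes of the locus had few counts. Tcrg-V7 had 0 counts in every Ndrg3 ctrl library and 14, 11, 11 and 8 in the Ndrg3 TKO libraries. Its Ndrg3 TKO mean was 3.10 times a floor of 3 counts in each Ndrg3 ctrl library. The exact 95% interval of its ratio, for counting error only, starts at 9.83 and has no upper end. Tcrg-V3 had 1, 0, 1 and 0 counts against 2, 16, 13 and 18, a ratio of 21.1 (exact 95% interval 5.53 to 179, counting error only). Its second exon is 94.5% identical to that of Trgv2, and Ndrg3 TKO replicate 1 was low. Trgj1 had 4, 0, 2 and 3 counts against 8, 6, 7 and 13, a ratio of 3.25 (1.53 to 7.70). Tcrg-V6 had 1, 1, 2 and 1 counts against 2, 6, 7 and 5, a ratio of 3.44 (1.25 to 11.7), and Tcrg-V5 had 0, 1, 1 and 0 against 4, 0, 1 and 5, a ratio of 4.30 (0.916 to 40.3). Trgj3 had 0 counts in every Ndrg3 ctrl library and 0, 0, 4 and 1 in the Ndrg3 TKO libraries, so no fold is given. When no gene was filtered out, Tcrg-V7 and Tcrg-V3 were past the threshold of 0.05 and the other 4 were not, beside 0.713% of the genes tested there called higher.

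The make-up of the locus counts differed between the groups along with their sum. The J2-C2 cluster took 42.7%, 35.5%, 28.4% and 22.7% of the counts of the 9 genes in Ndrg3 ctrl replicates 1 to 4, and 68.6%, 62.6%, 65.9% and 61.7% in Ndrg3 TKO replicates 1 to 4. Counting error alone gives a 95% Wilson interval of 34.4% to 51.5% for Ndrg3 ctrl replicate 1 and of 59.4% to 63.9% for Ndrg3 TKO replicate 4, and these intervals leave out the spread between mice. The J4-C4 cluster went from 45.0% ± 3.92 to 26.1% ± 2.23, the J1-C1 cluster from 19.5% ± 7.26 to 7.85% ± 1.04 and the J3-C3 cluster from 3.14% ± 1.03 to 1.32% ± 0.410 (SD, n = 4 each). By counts, which are not per length, the largest cluster was J4-C4 in Ndrg3 ctrl replicates 2, 3 and 4 and J2-C2 in Ndrg3 ctrl replicate 1 and in all 4 Ndrg3 TKO libraries. By kind of gene the make-up was alike. The V genes took 22.1% ± 6.84 in Ndrg3 ctrl and 22.9% ± 0.645 in Ndrg3 TKO, the J segments 3.19% ± 1.79 and 2.61% ± 0.659, and the C genes 74.7% ± 7.81 and 74.5% ± 0.376 (SD, n = 4 each). Like the fold changes, these shares come from the contrast that chose the genes and carry no test.

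**Figure D3:**
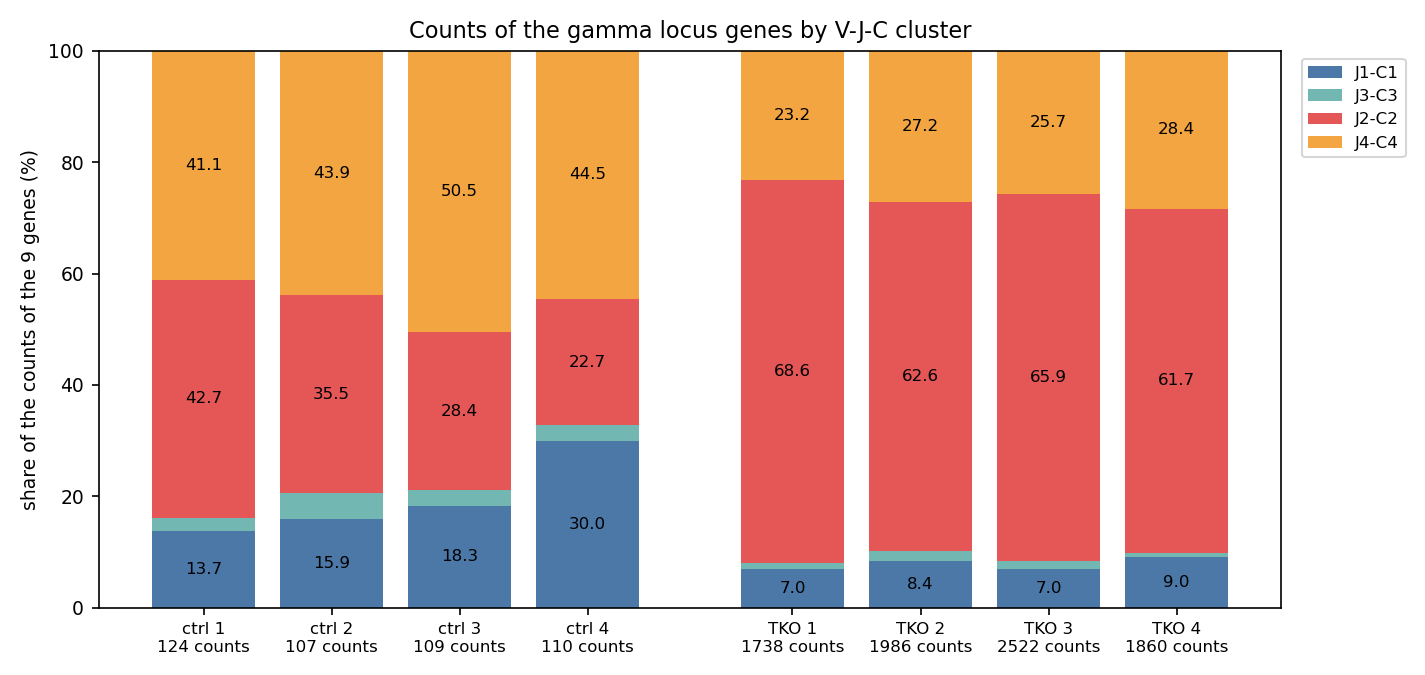
Share in percent of the counts of the 9 gamma locus genes that fell in each V-J-C cluster, with 1 bar per library and the number of counts under it. The J2-C2 share is 22.7% to 42.7% in the 4 Ndrg3 ctrl bars, which rest on 107 to 124 counts each, and 61.7% to 68.6% in the 4 Ndrg3 TKO bars.

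Levels can be compared between genes only per length, so CPM were divided by the exonic length in kilobases. On that scale the order of the mean levels in Ndrg3 ctrl ran from Trgj4 (1.68), Tcrg-C4 (1.39), Tcrg-V1 (1.19) and Tcrg-C2 (1.07) over Trgv2 (0.802), Tcrg-C1 (0.758) and Trgj2 (0.510) to Tcrg-V4 (0.286) and Tcrg-C3 (0.214). Every neighboring pair in this order overlapped between libraries. Trgj2 and Trgj4, with 60 and 61 exonic bases, rest on 3 and 11 counts over the Ndrg3 ctrl libraries. At such short lengths a level per length depends strongly on which reads were assigned, so their places in either group are uncertain. In Ndrg3 TKO the order ran from Tcrg-C2 (34.0), Trgv2 (17.1 to 27.1 over its libraries), Trgj2 (16.0), Tcrg-C4 (12.3), Trgj4 (12.2) and Tcrg-V1 (11.1) over Tcrg-C1 (5.03) to Tcrg-C3 (1.35) and Tcrg-V4 (1.00). Here the 4 libraries of Tcrg-C2 lay above those of Trgv2, those of Tcrg-V1 above those of Tcrg-C1, and those of Tcrg-C1 above those of Tcrg-C3, while the other neighboring pairs overlapped. By these means the 3 genes of the J2-C2 cluster held the first places in Ndrg3 TKO, the 3 of J4-C4 the next, and the J1-C1 and J3-C3 genes the last. Within the Ndrg3 TKO group, replicate 3 was the highest library for 7 of the 9 genes, and within Ndrg3 ctrl, replicate 2 was the highest for 5 of the 9.

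The gamma locus was set beside the constant genes of the other receptor loci, which were not used to choose it. Trdc, the constant gene of the TCRδ chain that pairs with TCRγ, was at 13.6, 10.9, 13.5 and 10.4 CPM in the Ndrg3 ctrl libraries and at 14.1, 10.5, 11.7 and 11.3 CPM in the Ndrg3 TKO libraries. The groups overlapped, and the log2 fold change was −0.03 (95% interval −0.29 to 0.22, adjusted p = 0.954 from edgeR). Trac, Trbc1 and Trbc2, the constant genes of the alpha beta receptor, had log2 fold changes of −0.03, −0.02 and −0.02, with 95% intervals within −0.16 to 0.12. Of these 4 genes, 0 passed the threshold, 0 had an unadjusted p under 0.05, and DESeq2 called 0. Over all tested genes, edgeR called 1.15%. In CPM per exonic kilobase, the 4 gamma constant genes together were at 1.12 ± 0.259 times Trdc in Ndrg3 ctrl and at 17.4 ± 4.20 times in Ndrg3 TKO (SD, n = 4 each). Trdc has 3865 annotated exonic bases against 650 to 985 for the gamma constant genes, so both ratios depend on these lengths.

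**Figure D4:**
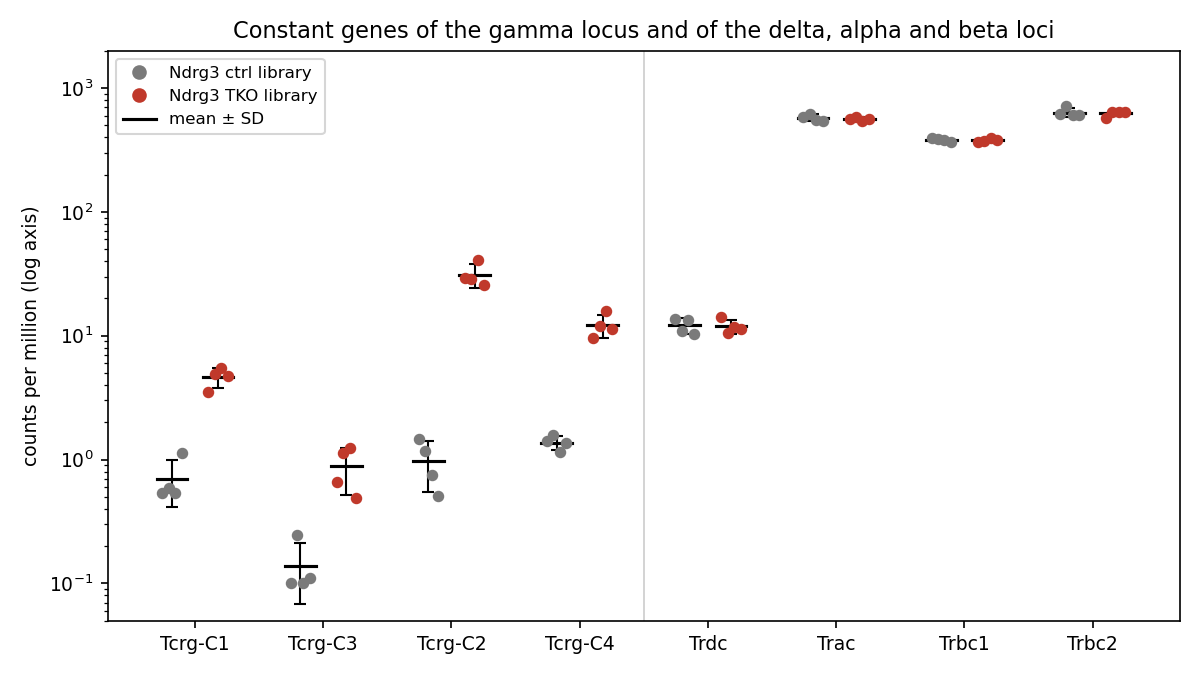
CPM (log axis) of the 4 gamma constant genes (left) and of the constant genes of the delta, alpha and beta loci (right), with a point per library (grey, Ndrg3 ctrl; red, Ndrg3 TKO) and the mean ± SD. The gamma constant genes separate by group, while Trdc stays between 10.4 and 14.1 CPM in all 8 libraries and Trac, Trbc1 and Trbc2 overlap.

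The other measured genes of the delta locus were near or under 2 CPM. Trdv2-2, a delta variable gene, was at 1.93 ± 0.496 and 1.89 ± 0.312 CPM in Ndrg3 ctrl and Ndrg3 TKO, Trdv1 at 1.13 ± 0.112 and 0.988 ± 0.305, and Trdv5 at 0.384 ± 0.170 and 0.316 ± 0.0923 (SD, n = 4 each), all with overlapping groups. Trdv4 had 0 counts in all 8 libraries. The 4 CD3 chain genes, Cd3d, Cd3e, Cd3g and Cd247, whose products carry every T cell receptor to the surface, had log2 fold changes of 0.01 to 0.11. Of these, 0 were called by edgeR or DESeq2, with 0 at an unadjusted p under 0.05. Among all tested genes 1.15% were called by edgeR.

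Of a list of 22 genes known for their expression in gamma delta T cells, which includes Trdc and the delta variable genes above, 14 were tested and 0 were called by edgeR or DESeq2, with 2 at an unadjusted p under 0.05. Over all 14633 tested genes, edgeR called 1.15% and 1588 had an unadjusted p under 0.05. The median log2 fold change of the 14 was −0.08 against −0.0033 over all tested genes. The 2 genes at an unadjusted p under 0.05 were a pair of scavenger receptor genes known from gamma delta T cells. Cd163l1 was at 1.71, 1.38, 2.47 and 3.40 CPM in the Ndrg3 ctrl libraries and at 6.83, 4.11, 3.54 and 10.99 CPM in the Ndrg3 TKO libraries, which lay higher by a narrow margin (log2 fold change 1.49, SE 0.425, adjusted p = 0.216 from edgeR). 5830411N06Rik was at 9.94 ± 3.98 and 22.1 ± 10.5 CPM (SD, n = 4 each), with overlapping groups (log2 fold change 1.15, SE 0.431, adjusted p = 0.408 from edgeR). Sox4, a transcription factor gene with the most CPM of the list (not per length), had a log2 fold change of −0.02 (95% interval −0.26 to 0.23). Il17f and Maf, of the interleukin-17 producing subset, did not pass the threshold (log2 fold changes −0.61 and 0.17), and Il17a had 0 counts in every library. The list summed to 216 to 279 CPM in Ndrg3 ctrl and 234 to 289 CPM in Ndrg3 TKO, of which Sox4 alone was 172 to 239 and 185 to 233 CPM. The part that gamma delta T cells within the sorted fraction have in the values of the gamma locus was not tested beyond these levels.

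Genes of the IL-7 receptor and STAT5 axis were examined because this signal acts on the locus. Of 14 listed genes 13 were tested, and 1 was called by edgeR and by DESeq2, with 3 at an unadjusted p under 0.05. Among all tested genes edgeR called 1.15%, and 1588 of 14633 had an unadjusted p under 0.05. Socs3, a feedback inhibitor of JAK and STAT signaling, rose from 37.2, 31.2, 32.7 and 40.2 CPM in the Ndrg3 ctrl libraries to 55.1, 49.6, 53.8 and 58.4 CPM in the Ndrg3 TKO libraries (log2 fold change 0.62, SE 0.0797, adjusted p = 0.000959 from edgeR), and the groups did not overlap. Jak1, Mcl1, Bcl2 and Il2rg, which had the most CPM of the list (not per length), had log2 fold changes of −0.07, −0.09, 0.05 and −0.09, and Il7r, the receptor gene itself, had −0.11 (95% interval −0.24 to 0.01). The other 2 genes at an unadjusted p under 0.05 were lower in Ndrg3 TKO, with log2 fold changes of −0.17 for Stat5a (adjusted p = 0.208 from edgeR), which encodes a STAT5 protein and whose groups did not overlap, and −0.16 for Pim2 (adjusted p = 0.286 from edgeR), a kinase gene. The median over the 13 was −0.04.

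Of 14 genes of V(D)J recombination 13 were tested and 0 were called by edgeR, with 3 at an unadjusted p under 0.05, while DESeq2 called Dntt. Over all tested genes 1.15% were called by edgeR, and 1588 of 14633 had an unadjusted p under 0.05. Dntt, the polymerase that adds bases at the joints, was at 15.6 ± 2.12 CPM in Ndrg3 ctrl and 21.3 ± 2.89 CPM in Ndrg3 TKO (SD, n = 4 each; log2 fold change 0.45, adjusted p = 0.0783 from edgeR). The other 2 genes at an unadjusted p under 0.05, Poll and Polm, were lower in Ndrg3 TKO, with groups that did not overlap. Their log2 fold changes were −0.20 and −0.22 (adjusted p = 0.331 and 0.201 from edgeR). Prkdc, Hmgb1, Hmgb2 and Xrcc6, the genes of the list with the most CPM (not per length), had log2 fold changes of −0.16 to −0.03. Rag1 was at 3.31 ± 1.92 and 2.42 ± 1.54 CPM and Rag2 had 6 counts over the Ndrg3 ctrl libraries and 12 over the Ndrg3 TKO libraries, so the recombinase genes were at low levels in both groups.

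Of 19 transcription factor genes of T lineage choice 18 were tested, with 1 called higher and 1 lower by edgeR and 6 at an unadjusted p under 0.05. DESeq2 called Id3 lower as well, an inhibitor of E proteins (log2 fold change −0.27, SE 0.0642, adjusted p = 0.0716 from edgeR), whose groups did not overlap. Gata3, which acts at several steps of T cell development, rose from 58.6 ± 2.84 to 82.2 ± 5.71 CPM (SD, n = 4 each), with no overlap (log2 fold change 0.49, SE 0.0594, adjusted p = 0.000525 from edgeR). Egr1, an early gene of receptor signaling, fell from 208 ± 23.7 to 155 ± 16.4 CPM (log2 fold change −0.43, SE 0.0889, adjusted p = 0.0422 from edgeR), but its call was lost without Ndrg3 ctrl replicate 1, 2 or 3 or Ndrg3 TKO replicate 2, 3 or 4, with values from −0.45 to −0.36. Ets1, Tcf7, Ikzf1 and Lef1, with the most CPM of the list (not per length), had log2 fold changes of −0.09 to 0.05. Across all 6 lists 3 of 65 tested genes were called, beside 1.15% of all tested genes. At an unadjusted p under 0.05 there were 14 of these 65, beside 1588 of all 14633 tested genes.

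**Figure D5:**
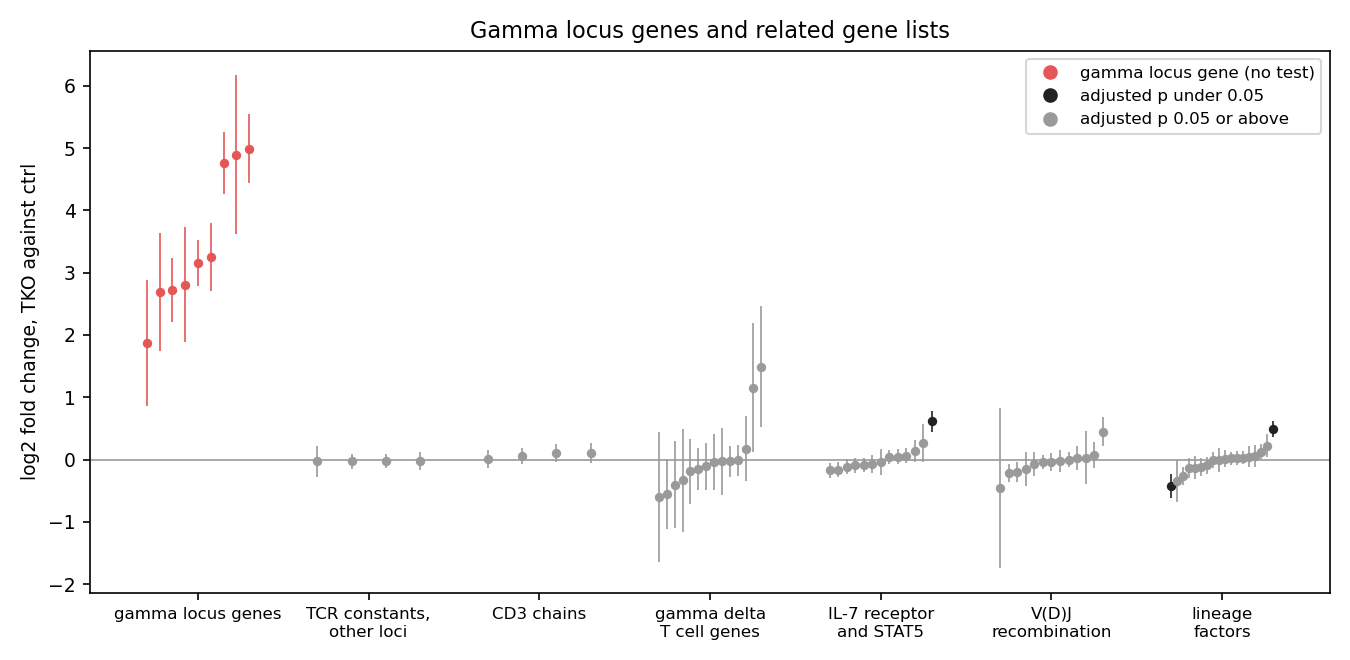
Log2 fold change of Ndrg3 TKO against Ndrg3 ctrl with its 95% interval for the 9 gamma locus genes (red, not tested) and for the tested genes of 6 related lists (black, adjusted p under 0.05; grey, above it). The gamma locus genes lie between 1.87 and 4.99, and of the other lists Socs3, Gata3 and Egr1 are black.

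Genes beside the locus were examined as well, but too few were tested to measure whether the difference reached past it. Within 1 Mb of either end lie 13 further genes, of which 3 were tested and 0 called by edgeR, beside 1.15% of all tested genes. Of these 3, 2 had an unadjusted p under 0.05, beside 1588 of all 14633 tested genes. DESeq2 called the overlapping Gm31887. Vps41, a gene of vesicle transport and the nearest tested gene before the locus at 311 kb, was at 57.7 ± 1.43 CPM in Ndrg3 ctrl and 55.8 ± 0.981 CPM in Ndrg3 TKO (SD, n = 4 each), a log2 fold change of −0.05 (95% interval −0.15 to 0.05). Stard3nl, a cholesterol transport gene that ends 4.92 kb after Tcrg-C4, was at 17.6 ± 1.87 and 21.4 ± 1.64 CPM, and its Ndrg3 TKO libraries lay above the Ndrg3 ctrl libraries by a small step (log2 fold change 0.28, SE 0.0888, adjusted p = 0.205 from edgeR). Gm42683, annotated within Stard3nl and on its strand, had a log2 fold change of 0.71 (SE 0.198, adjusted p = 0.133 from edgeR). Its Ndrg3 TKO libraries also lay above the Ndrg3 ctrl libraries, and reads of these overlapping genes are uncertain. Amph, which ends 27.1 kb before the locus, had 0 counts over the Ndrg3 ctrl libraries and 3 over the Ndrg3 TKO libraries.

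The tested genes outside the locus with the profile most like the summed counts of the 9 genes were found by the root mean square difference of their centered log2 CPM over the 8 libraries. The closest 5 were Tppp (0.764), which encodes a tubulin-binding protein, Tnfrsf19 (0.783), a TNF receptor family gene, Klrb1c (0.836), which encodes NK1.1, Prss30 (0.850), a serine protease gene, and 2810459M11Rik (0.889). They lie on chromosomes 13, 14, 6, 17 and 1, and Tppp, at chr13:74009407-74035753, is far from the locus on the same chromosome. The members themselves were at 0.351 (Trgv2) to 1.28 (Tcrg-V4), but they make up the sum, so their closeness to it is partly built in. As the 5 genes were picked for this pattern, their values are a description. Tppp went from 40 counts over the Ndrg3 ctrl libraries to 1732 over the Ndrg3 TKO libraries, Tnfrsf19 from 58 to 407, Klrb1c from 30 to 221, Prss30 from 34 to 239 and 2810459M11Rik from 11 to 115.

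Klrb1c is also 1 of the 7 markers of NK and NKT cells that were checked. It was at 0.268, 0.639, 0.203 and 0.110 CPM in the Ndrg3 ctrl libraries and at 1.56, 1.48, 2.04 and 2.03 CPM in the Ndrg3 TKO libraries, a description only, since it was picked above for this pattern. The list summed to 223 to 262 CPM in Ndrg3 ctrl and 244 to 300 CPM in Ndrg3 TKO, nearly all of it from Nkg7. Zbtb16, the defining factor of NKT cells, had 26 counts over the Ndrg3 ctrl libraries and 7 over the Ndrg3 TKO libraries. In CPM every Ndrg3 TKO library lay below the Ndrg3 ctrl libraries for Zbtb16. The immature thymocyte markers summed to 87.4 to 105 CPM and 87.3 to 106 CPM, and the markers of CD4 cells to 3.18 to 5.40 and 4.33 to 7.05 CPM. These sums hide single genes. Of 4 tested NK and NKT cell markers, Klrb1c and Nkg7 had an unadjusted p under 0.05 from edgeR. Of 5 tested immature markers, Dntt and Il2ra had an unadjusted p under 0.05 from edgeR, and DESeq2 called Dntt. Dntt was at 14.2 to 18.7 CPM in Ndrg3 ctrl and 19.2 to 25.4 CPM in Ndrg3 TKO. Of 2 tested CD4 cell markers, Foxp3 had an unadjusted p under 0.05 from edgeR, and 0 were called. The part that these cell types have in the values of the gamma locus was not tested.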

How the data were processed

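The 8 stranded total RNA libraries came from sorted CD8SP thymocytes, 4 per genotype. In their snakePipes run the authors used cutadapt for trimming, STAR for alignment (GRCm38.p4) and featureCounts for counting. The versions of these 3 tools and their strand and multi-mapping settings are not given in the sources used here. The deposited values are raw counts for 47937 genes, of which 47224 (98.5%) matched the GENCODE M21 annotation (GRCm38), the source of symbols, positions and sequences. The authors counted against an earlier GENCODE release of the same build, so gene structures, and with them levels per length and shares of unique windows, may differ from those behind the counts.

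Genes were filtered with filterByExpr, scaled by TMM and compared with edgeR 4.0.16 (glmQLFit robust, glmQLFTest; R 4.3.3, limma 3.58.1), with Benjamini-Hochberg adjustment over 14633 genes, calling genes at 0.05. Each SE is the log2 fold change over the root of F. Log2 CPM profiles used a prior count of 2. DESeq2 1.42.0, other scalings and filters, a likelihood ratio test, a replicate block, a Y-linked covariate and leaving out each library were tried. The procedure was tested on simulated data. V exons were aligned with Biopython 1.88. Intervals and the floor of 3 counts cover counting error only, since no molecular identifiers are stated and PCR copies are not separate molecules. Between any replicates of a group the chi-square per gene was 9.26 to 32.3, far above sampling noise, and no library repeats another.

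The members and gene lists were chosen with earlier results of these data known. Named genes are the members, the other locus genes, Ndrg3, the constant genes of other loci, list genes past the threshold or among the 4 highest, the nearest tested neighbors and the 5 most similar profiles. Other genes named were chosen after their values were seen.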

Additional observations from a re-analysis of the deposited data

Results flagged for a closer look

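In 7 of 48 groups of 4 libraries checked, the highest or lowest library stood apart from the others by Dixon's criterion for 4 values, which flags about 1 group in 20 by chance, or 2.4 of 48. In Ndrg3 ctrl, replicate 4 was high for Tcrg-C1 (1.13 CPM) and for 5830411N06Rik (15.8 CPM). Also in Ndrg3 ctrl, replicate 2, the shallowest library, was high for Tcrg-C3 (0.246 CPM, from 5 counts), Trgv2 (0.639 CPM, from 13 counts), Trbc2 (712 CPM) and the share of the J3-C3 cluster (4.67%). In Ndrg3 TKO, replicate 1 was low for Trbc2 (576 CPM).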

How the results depend on the processing

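The 9 gamma locus genes had positive log2 fold changes under every alternative that kept them, from 1.54 (Tcrg-V4, leaving out a library) to 5.83 (Trgj2 without Ndrg3 ctrl replicate 4, which held 2 of its 3 counts). With at least 10 counts required in every library 3 members stayed and 3 were called. Leaving out a library gave 8 to 9 called members, and all tested genes past the threshold then numbered 90 to 158 against 168, with 90 without Ndrg3 TKO replicate 3, 100 without Ndrg3 ctrl replicate 1 and 104 to 110 without Ndrg3 ctrl replicate 3 or 4 or Ndrg3 TKO replicate 1 or 4. They numbered 309 with DESeq2, 274 without a filter, 285 with the likelihood ratio test and 415 with the Y-linked covariate.

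Genes of the other lists past the threshold numbered 5 with DESeq2, 5 without a filter, 6 with the likelihood ratio test and 9 with the Y-linked covariate (3 as reported, 2 to 3 leaving out a library). Under the likelihood ratio test and the Y-linked covariate 1 gamma delta T cell gene passed, and under the covariate 2 IL-7 receptor and STAT5 genes and 5 lineage factor genes did. For V(D)J recombination 1 gene passed with DESeq2, without a filter, with the likelihood ratio test and with the covariate, and 0 to 1 leaving out a library (1 without Ndrg3 ctrl replicate 1). Lineage factor genes numbered 1 to 2 leaving out a library (1 without Ndrg3 ctrl replicate 1 or 2 or Ndrg3 TKO replicate 2, 3 or 4). Neighboring genes numbered 1 with DESeq2, 2 without a filter and 1 with the likelihood ratio test.

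Same-numbered libraries correlated at r = 0.181, 0.415, −0.055 and 0.301 in their deviations from the group means, and 6 of 8 libraries correlated best with their own number. The labels name no pairs and the value for replicate 3 was negative, so the numbers were not taken to pair the mice. These values do not settle whether some of the mice were paired. A block for the replicate number gave 800 genes past the threshold, among them 9 members, 13 genes of the other lists (2 gamma delta T cell, 3 IL-7 receptor and STAT5, 2 V(D)J recombination and 6 lineage factor genes) and 1 neighbor.

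The log2 fold changes of Trac, Trbc2 and Trdc, near 0, changed sign: leaving out a library they ran from −0.064 to 0.0070, −0.045 to 0.039 and −0.12 to 0.033, and Trdc was 0.020 with the covariate. The cause of these shifts was not tested. At 107 to 124 counts per Ndrg3 ctrl library over the 9 genes, shares and ratios there are limited by depth.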
